A study of Mus musculus with 9 samples.

Results

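Red cells finish their development as reticulocytes, which have lost the nucleus and still carry mitochondria, ribosomes and membrane proteins that a mature red cell lacks. Mitochondria are removed by mitophagy, in which a receptor on the mitochondrial surface binds ATG8-family proteins on a growing autophagosome, and much of the remaining protein is removed by ubiquitin ligases and the proteasome. 9 genes of this programme were chosen by name for their known roles: the autophagy-starting kinase Ulk1, the mitophagy receptor Bnip3l, the ATG8-family genes Gabarapl2 and Map1lc3b, the ubiquitin enzymes Ube2o and Fbxo7, the ligase genes Trim10 and Trim58, and the metabolic enzyme Bpgm. Of these 9, 8 were measured among the 14253 genes kept on the array, and Trim58 matched no probe and was not analysed here. The genes were picked with earlier results of these data known, so their shared directions are descriptions and their number is not independent evidence.

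The study followed 3 female Balb/c athymic mice, numbered 832, 833 and 834, which lack a normal thymus, with 1 array per mouse in each of 3 groups. The day 10 TIC group is a fraction enriched for tumour-infiltrating cells, made from ground tumours 10 days after subcutaneous injection of Hepa1-6 cells, a mouse hepatoma line. The day 10 Blood group is whole blood of the same tumour-bearing mice, and the day 0 Blood group is their blood before the injection. Every array carried the sample in Cy5 (red) and in Cy3 (green) one shared reference, RNA from the blood of a female C57Bl/6 mouse left untreated, with no dye swap, so each value is a log2 ratio to that blood and a dye effect that differs between genes stays in it.

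The share of probes well above background in Cy5 was 48.2% to 55.1% on the TIC arrays, 14.2% to 21.0% on the day 10 blood arrays and 24.3% to 36.9% on the day 0 blood arrays. Median log2 ratios of 22 erythroid markers were -5.27 to -4.56 on the TIC arrays, against 0.05 to 0.07 on the day 10 and -0.88 to -0.55 on the day 0 blood arrays. On the TIC arrays 14 to 17 of those 22 markers were still above background, as were 12 of 12 macrophage markers and 10 or 11 of 11 hepatocyte and hepatoma markers. On the day 10 blood arrays 2 to 5 of the macrophage and 2 or 3 of the hepatocyte markers were above background. A filter kept only genes with Cy5 above background on 3 or more arrays, so a marker read only in TIC passes through TIC. The TIC counts were thus partly fixed by that filter. The hepatocyte and hepatoma list held 15 genes, of which 11 were kept. In such bulk RNA, fewer red cells and less RNA per red cell cannot be told apart. The TIC arrays of mice 832 and 834 correlated at 0.99 over all genes, and that of mouse 833 at 0.88 and 0.90 with them, so it stood apart and its results are given with and without it.

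For 7 of the 9 genes a RefSeq start-site window was at hand (GRCm38.p6), and Bnip3l and Ube2o had none. Each window was searched on both strands for GATAA (the core bound by GATA factors), CACCC (the core bound by erythroid Krüppel-like factors) and CACGTG (the E-box bound by TFEB and TFE3), whose letters do not overlap here. These motifs were present in 22.6%, 52% and 6.02% of the 32851 mouse windows of the same 250 bases. Shown are Trim10, Bpgm, Gabarapl2 and Ulk1. Trim10 had the smallest p between the blood groups and was the only measured gene whose window was at hand and held GATAA. After loess Bpgm and Gabarapl2 also were higher in every mouse at day 10, and they hold none of the 3 motifs. Map1lc3b and Fbxo7, whose windows are not shown, were higher in every mouse too. Ulk1 was not higher in every mouse. The sequences are the 250 bases before the start (chr17:36869324-36869573, plus strand, chr6:34476106-34476355, plus strand, chr8:111940453-111940702, plus strand, and chr5:110810082-110810331, minus strand), with motif matches in capitals (TTATC and GGGTG are matches on the other strand).
Trim10: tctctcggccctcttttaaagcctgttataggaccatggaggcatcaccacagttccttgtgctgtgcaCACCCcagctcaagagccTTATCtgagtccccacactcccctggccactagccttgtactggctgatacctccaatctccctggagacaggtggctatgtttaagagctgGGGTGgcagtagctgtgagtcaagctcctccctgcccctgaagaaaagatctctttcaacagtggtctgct
Bpgm: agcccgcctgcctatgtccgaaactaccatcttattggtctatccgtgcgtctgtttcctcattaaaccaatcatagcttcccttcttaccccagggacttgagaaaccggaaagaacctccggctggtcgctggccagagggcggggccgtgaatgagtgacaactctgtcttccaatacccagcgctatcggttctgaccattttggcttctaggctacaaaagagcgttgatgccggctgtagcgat
Gabarapl2: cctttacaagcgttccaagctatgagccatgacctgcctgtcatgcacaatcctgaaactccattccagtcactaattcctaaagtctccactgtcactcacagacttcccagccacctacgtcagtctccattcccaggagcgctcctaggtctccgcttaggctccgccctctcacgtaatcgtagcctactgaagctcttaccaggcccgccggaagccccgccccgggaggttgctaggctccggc
Ulk1: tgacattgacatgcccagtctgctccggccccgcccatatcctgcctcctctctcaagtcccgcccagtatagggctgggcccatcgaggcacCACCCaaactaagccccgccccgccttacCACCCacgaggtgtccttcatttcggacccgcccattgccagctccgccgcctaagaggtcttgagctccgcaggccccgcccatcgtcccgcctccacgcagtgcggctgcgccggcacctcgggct
Trim10 held 1 GATAA at 163 bases and CACCC at 181 and 71 bases before the start, and Ulk1 held CACCC at 157 and 128 bases. Map1lc3b held 1 CACCC at 24 bases, and Trim58 1 GATAA at 92 bases. Of the 2 listed starts of Fbxo7, 1 had a CACCC and the other no match, and none of the windows held CACGTG. A match describes only the letters.

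The probes of the 8 measured genes were each well above background in both channels on all 9 arrays, so no value is a bound. Ulk1, the kinase that starts autophagy and is needed for timely mitochondrial clearance in mouse reticulocytes, was read by a probe at chr5:111024798-111024857 (mm8, as are all probe positions). Its log2 ratio was -2.02, -0.23 and -1.50 in the TIC of mice 832, 833 and 834, 0.73, 0.57 and 0.62 in day 10 blood, and 0.37, 0.63 and 0.50 in day 0 blood. The TIC arrays were below every blood array, and the blood groups overlapped. Its raw Cy5 signal ran the other way, at 421 to 800 units in TIC, with day 10 blood at 97.4 to 135 and day 0 blood at 144 to 276, and under median centring its ratio was higher in TIC too (1.85 against day 10 blood).

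Bnip3l, also called Nix, is the outer-membrane receptor through which mouse reticulocytes shed mitochondria (probe chr14:65939350-65939361, the stretch that the file lists). Its ratio was -8.36, -6.96 and -7.71 in TIC, 2.04, 1.59 and 3.07 in day 10 blood and 0.53, -0.48 and 1.19 in day 0 blood. The 3 groups did not overlap. Its mean was -7.68 ± 0.70 in TIC, 2.23 ± 0.76 in day 10 blood and 0.42 ± 0.84 in day 0 blood (SD, n = 3 each).

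Gabarapl2 and Map1lc3b encode ATG8-family proteins, which are joined to lipid on the autophagosome and bind mitophagy receptors. Gabarapl2 (chr8:114839414-114839473) had ratios of -7.74, -6.39 and -7.05 in TIC, 0.90, 1.01 and 1.69 in day 10 blood and -0.58, -1.15 and 0.17 in day 0 blood. Map1lc3b (chr8:124482084-124482143) had -5.67, -5.89 and -5.36 in TIC, -0.27, -0.04 and 0.82 in day 10 blood and -1.04, -2.10 and -0.67 in day 0 blood. For both, every TIC array was below every blood array and every day 10 array above every day 0 array. Raw Cy5 of Map1lc3b overlapped between the groups, at 978 to 13799 units in TIC, with day 10 blood at 1241 to 1974 and day 0 blood at 1295 to 4228. For Gabarapl2 the raw TIC signals, 751 to 2324 units, were below every day 10 array (2443 to 3589). The day 0 arrays, 1968 to 5777, overlapped both. In mouse 832 the raw TIC and day 10 signals were close, 2324 and 2443, where the difference after loess was -8.65.

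Ube2o, a combined E2 and E3 ubiquitin enzyme that marks ribosomal and other proteins for the proteasome in mouse reticulocytes (chr11:116354155-116354214), had the lowest single ratio. It was -10.94, -8.04 and -10.29 in TIC, 0.32, 0.12 and 1.0 in day 10 blood and -1.54, -2.34 and -0.58 in day 0 blood. The 3 groups were apart, and the TIC of mouse 833 was the least low. Fbxo7, the F-box subunit of an SCF ubiquitin ligase (chr10:85477819-85477878), had -4.81, -4.28 and -4.48 in TIC, -0.52, -0.69 and -0.37 in day 10 blood and -0.93, -1.94 and -1.16 in day 0 blood. Its groups were also apart, over a shorter range than those of Ube2o. Its raw Cy5 signal was low, at 145 to 285 units in TIC, with day 10 blood at 116 to 144 and day 0 blood at 115 to 325. In these raw units every TIC array was above every day 10 array, opposite to the ratio, and the day 0 arrays overlapped both.

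Trim10, a RING-finger gene needed for terminal erythroid differentiation in mouse cell culture (chr17:36485267-36485326), had -7.62, -6.74 and -6.92 in TIC, -1.51, -0.99 and -0.66 in day 10 blood and -2.77, -3.23 and -2.53 in day 0 blood. All its ratios were below 0, so after loess every sample was below the reference blood, and the groups were apart. Its raw Cy5 signal was low, and in these raw units all 3 groups overlapped. TIC ranged from 70.0 to 145 units, day 10 blood from 140 to 247 and day 0 blood from 95.7 to 230. Bpgm makes 2,3-bisphosphoglycerate, which lowers the oxygen affinity of haemoglobin (chr6:34434950-34435009). Its ratios were -9.84, -8.24 and -9.21 in TIC, -0.18, -0.11 and 0.57 in day 10 blood and -1.54, -2.28 and -0.66 in day 0 blood. The TIC arrays lay far below both blood groups, and the lowest day 10 blood array lay above the highest day 0 one.

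**Figure D1:**
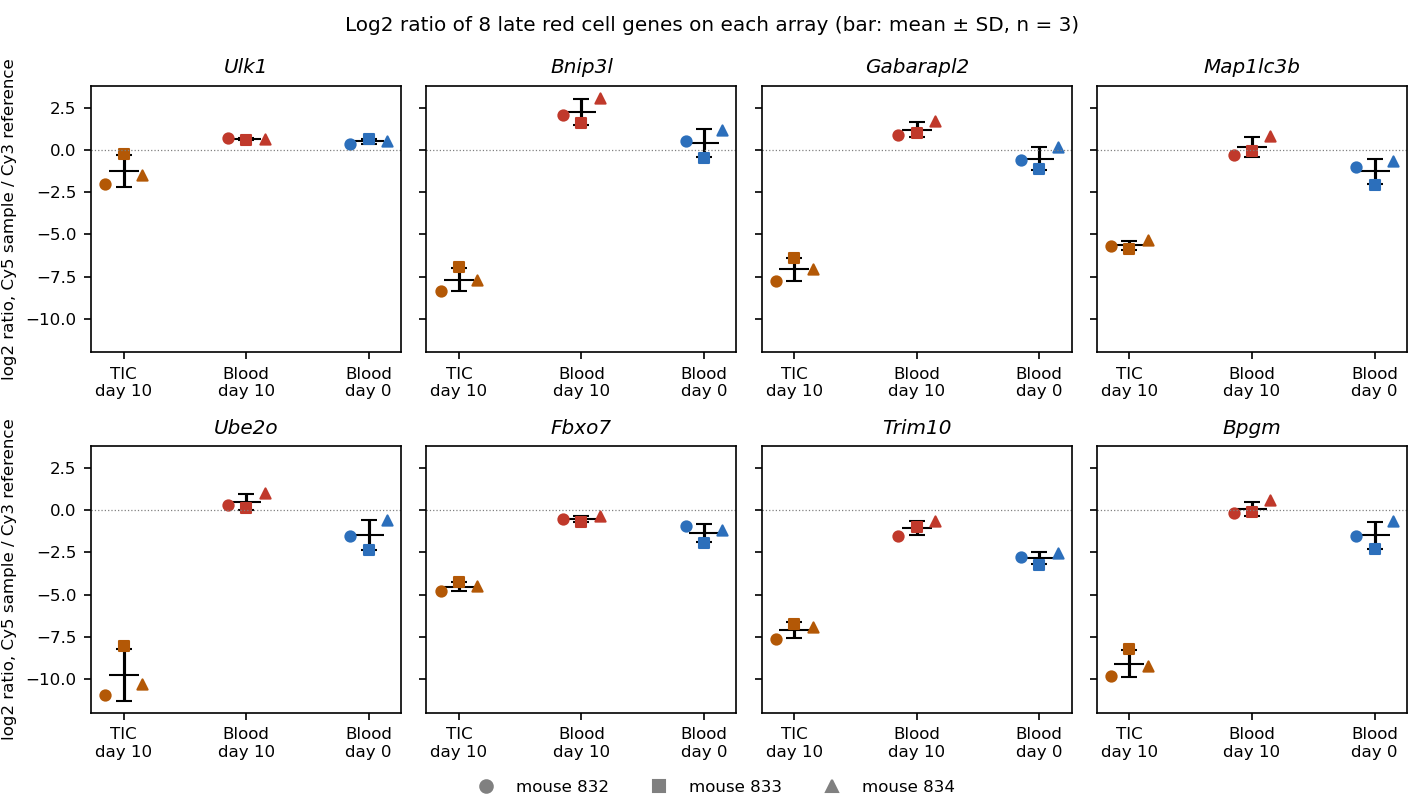
Each panel plots the log2 ratio of sample (Cy5) to reference blood (Cy3) of 1 gene on the 9 arrays after loess scaling, with mouse 832 as circles, 833 as squares and 834 as triangles, and bars at the mean ± SD (n = 3). TIC is below both blood groups in all 8 panels after this scaling (median centring turns Ulk1, Map1lc3b and Fbxo7 round against day 10 blood), and day 10 blood overlaps day 0 blood for Ulk1.

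The comparison of day 10 with day 0 blood sets the blood of the tumour-bearing mice against their own earlier blood. No tumour-free mice were sampled at day 10, so tumour, elapsed time and the earlier sampling cannot be told apart. Of the day 0 arrays, 2 were on a slide without day 10 arrays. All 8 genes had a positive difference after loess, with a median of 1.66 on the log2 scale against -0.01 over all genes, and none passed limma's test at an adjusted p of 0.05. No gene of the 14253 passed it in that fit, 0% in either direction. At an unadjusted p under 0.05 stood 7 of the 8, against 14.8% of all genes. Also 7 of the 8 had every day 10 array above every day 0 array, against 15.7% of all genes. The medians over the 8 genes within mice 832, 833 and 834 were 1.31, 2.12 and 1.51.

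Ube2o had the largest difference, 1.97 ± 0.72 (SE, limma adjusted p = 0.258), with 1.86, 2.46 and 1.58 in mice 832, 833 and 834. Bnip3l was higher by 1.82 ± 0.53 (limma adjusted p = 0.189) and Trim10 by 1.79 ± 0.30 (limma adjusted p = 0.0659). The differences of Gabarapl2 and Bpgm were 1.72 ± 0.42 and 1.59 ± 0.49, with limma adjusted p of 0.128 and 0.199. Those of Map1lc3b and Fbxo7 were 1.44 ± 0.39 and 0.81 ± 0.26, with limma adjusted p of 0.165 and 0.206. Ulk1 differed by 0.14 ± 0.38 (limma adjusted p = 0.965), and was lower by 0.06 in mouse 833. All 7 other genes were higher at day 10 in 3 of 3 mice.

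The size of these differences followed the scaling. In the ratios that the authors deposited the median over the 8 genes was 0.75 (all genes -0.21), and in Cy5 alone after quantile scaling 0.81 (all genes -0.07), with all 8 above 0 in both. With each array only centred on its median the 8 genes had a median of -0.003 (all genes -0.18), and Ulk1 (-0.70), Fbxo7 (-0.29), Map1lc3b (-0.12) and Bpgm (-0.08) turned negative. Relative to the median of all genes, 6 of the 8 remained above it under that centring, Trim10 by 0.63 as the furthest and Ulk1 and Fbxo7 below it. Trim10 was higher under all 4 scalings and was called in the deposited ratios (2.37, limma adjusted p = 0.0243, where 0.989% of genes were called higher) and in Cy5 alone (1.47, limma adjusted p = 0.0224, where 1.31% were). These are the same arrays, so they are not separate evidence.

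**Figure D2:**
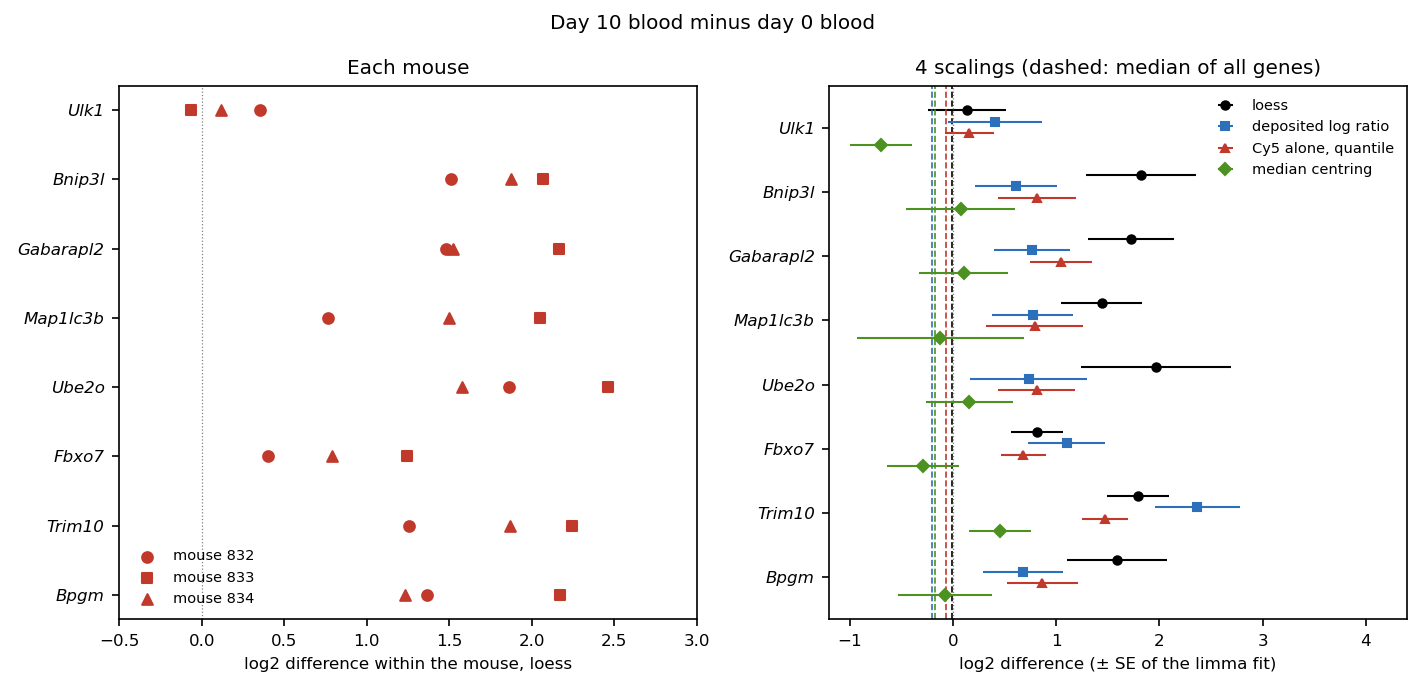
The left panel plots day 10 minus day 0 blood within each mouse, in log2 units after loess, for the 8 genes, and the right panel the fitted difference ± SE under 4 scalings, with dashed lines at the median of all genes under each. After loess 7 genes are above 0 in every mouse, and median centring brings 4 of the 8 below 0.

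The call between the blood groups depended on which arrays set the spread. Without the TIC array of mouse 833, which enters only through the shared estimate of the spread, 1058 genes were called, 3.75% of all genes as higher. Among them were Trim10 (limma adjusted p = 0.0132), Gabarapl2 (0.0262), Ube2o (0.0309) and Bpgm (0.0450). With only the blood arrays in the fit 747 genes were called, 2.64% of all as higher, with Trim10 and Gabarapl2 among them (limma adjusted p = 0.0237 and 0.0413). With mouse as a block 32 genes were called, 0.203% of all as higher, and none was among the 8. The day 0 array of mouse 834 shared a slide with all 3 day 10 arrays, and against it alone the differences were 1.47 for Trim10, 1.06 for Ube2o, 1.04 for Bnip3l, 1.03 for Gabarapl2, 0.84 for Map1lc3b, 0.76 for Bpgm, 0.63 for Fbxo7 and 0.13 for Ulk1. Erythroid markers had a positive difference in 22 of 22 cases with a median of 1.02, and platelet markers in 8 of 9 with a median of 0.72, none called (-0.08 and -0.29 under median centring). Their part in the result was not tested.

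The comparison of TIC with day 10 blood sets the tumour fraction against the blood of the same mice. All 8 genes fell in TIC after loess by limma's test, where 33.1% of all genes did, and for all 8 every TIC array lay below every day 10 blood array, where that held for 34.9% of genes. The median difference was -7.16 on the log2 scale, against 0.07 over all genes. The largest were Ube2o at -10.23 ± 0.72 (SE, limma adjusted p = 5.97e-06) and Bnip3l at -9.91 ± 0.53 (limma adjusted p = 2.01e-06). Bpgm followed at -9.19 ± 0.49 and Gabarapl2 at -8.27 ± 0.42 (limma adjusted p = 1.90e-06 and 1.54e-06). Raw Cy5 of Ube2o was 1013 to 2184 units in TIC and 5775 to 7558 in day 10 blood. For Bnip3l it was 900 to 3756 and 7168 to 9418, and for Bpgm 535 to 1770 and 2429 to 3586. These raw signals were lower in TIC but lay much closer together than the differences after loess.

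Trim10 and Map1lc3b differed less, at -6.04 ± 0.30 and -5.81 ± 0.39 (limma adjusted p = 1.44e-06 and 5.02e-06), and Fbxo7 at -3.99 ± 0.26 (limma adjusted p = 3.84e-06). Ulk1 had the smallest difference, -1.89 ± 0.38 (limma adjusted p = 0.00225), with -2.74, -0.80 and -2.13 in mice 832, 833 and 834. The median over the 8 genes was -7.38, -6.63 and -7.51 in mice 832, 833 and 834. Without the TIC array of mouse 833 all 8 stayed called, where 37% of genes were called lower, and the differences ran from -11.09 for Ube2o to -2.40 for Ulk1.

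Scaling decided the direction of 3 genes. Under median centring the median of all genes itself was 1.38, and Ulk1 (1.85, limma adjusted p = 0.000623), Map1lc3b (0.91, limma adjusted p = 0.325) and Fbxo7 (0.27, limma adjusted p = 0.492) were above 0, with 72.1% of all genes called higher. Relative to that median Ulk1 was higher by 0.47, while Map1lc3b was lower, at -0.48, and Fbxo7 at -1.11. Ube2o (-2.70), Bnip3l (-2.66), Bpgm (-2.20), Gabarapl2 (-1.60) and Trim10 (-1.26) were lower and called under median centring too, where 3.25% of genes were called lower. In the deposited ratios and in Cy5 alone all 8 were lower and called, with medians of -7.29 and -4.36, where 26.8% and 22.8% of genes were called lower. No slide held both TIC and day 10 blood arrays. A slide block in the fit left 7 of the 8 called, where 19.5% of genes were called lower, and Ulk1 lost its call (-1.50, limma adjusted p = 0.0988).

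**Figure D3:**
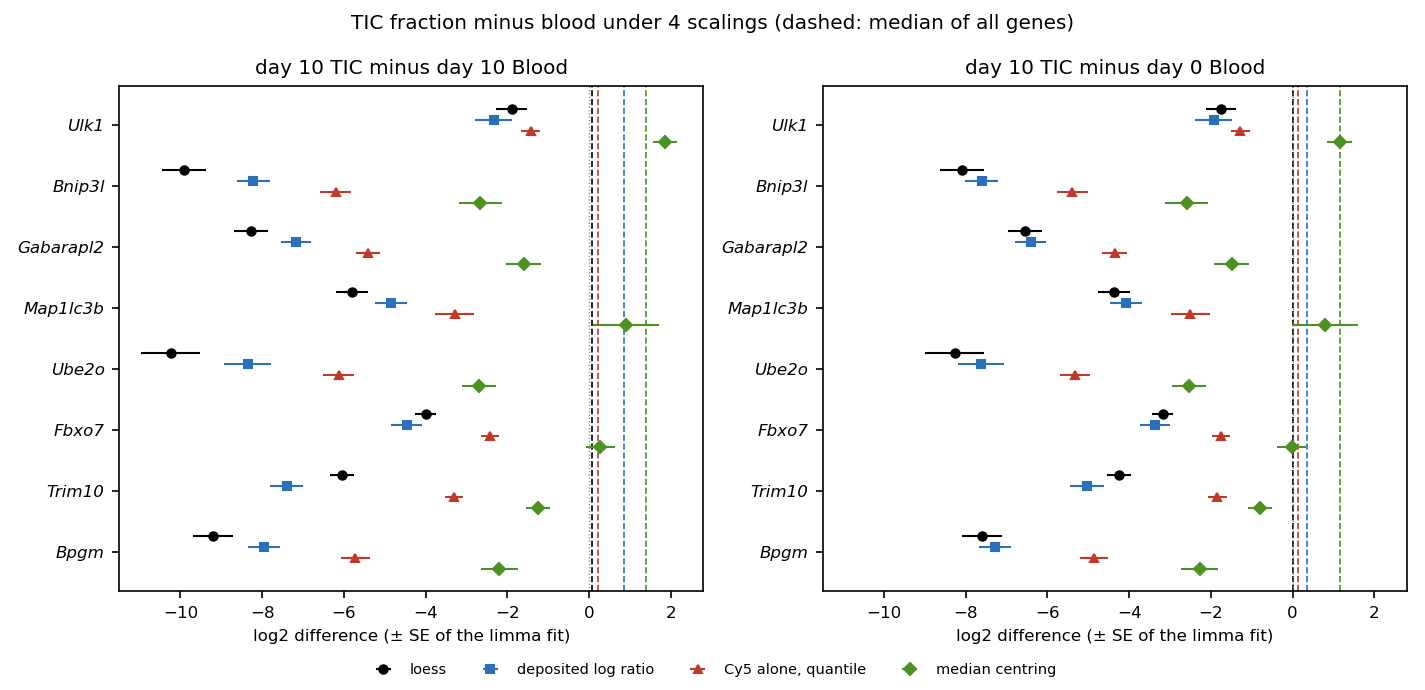
The panels plot TIC minus day 10 blood (left) and TIC minus day 0 blood (right) in log2 units ± SE for the 8 genes under 4 scalings, with dashed lines at the median of all genes under each. Ube2o, Bnip3l, Bpgm, Gabarapl2 and Trim10 are below 0 under all 4, while median centring puts Ulk1 and Map1lc3b above 0 in both panels and Fbxo7 above 0 on the left.

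Against day 0 blood, before the tumour, TIC was also lower for 8 of 8 genes after loess and limma's test, where 33.6% of all genes were called lower, with a median of -5.46. This comparison uses the same TIC arrays as the one above. The differences were -8.27 for Ube2o, -8.09 for Bnip3l, -7.61 for Bpgm, -6.55 for Gabarapl2, -4.37 for Map1lc3b, -4.25 for Trim10, -3.18 for Fbxo7 and -1.75 for Ulk1 (limma adjusted p at most 0.00361). Under median centring (all genes 1.16) Ulk1 was at 1.15 and Map1lc3b at 0.79, and Fbxo7 at -0.02 was not called, where 5.73% of genes were called lower. On the slide that held 2 TIC and 2 day 0 arrays the differences ran from -7.36 for Bnip3l and -7.22 for Ube2o to -1.37 for Ulk1, all 8 below 0. Without the TIC array of mouse 833 they ran from -9.12 for Ube2o to -2.26 for Ulk1.

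For 5 genes a dimmer probe was above background on all 9 arrays. The 2 probes of Bpgm gave like values between TIC and day 10 blood, -8.87 with the dimmer (chr6:34418070-34434449, a listed span longer than the probe) and -9.19 with the brighter. The dimmer probe of Bnip3l gave -7.50, that of Ube2o -4.73, that of Map1lc3b -2.90 and that of Ulk1 -0.75, all smaller in size than the brighter. Between the blood groups the dimmer probes gave 1.80 for Bnip3l, 1.53 for Bpgm, 1.44 for Ube2o, 0.19 for Map1lc3b and -0.07 for Ulk1. Map1lc3b thus had 1 probe with a positive difference in every mouse after loess and 1 near 0. The dimmer Gabarapl2 probe was not above background in Cy5 on any blood array, and a second probe listed for Fbxo7 lay on the opposite strand and was not above background on any array.

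**Figure D4:**
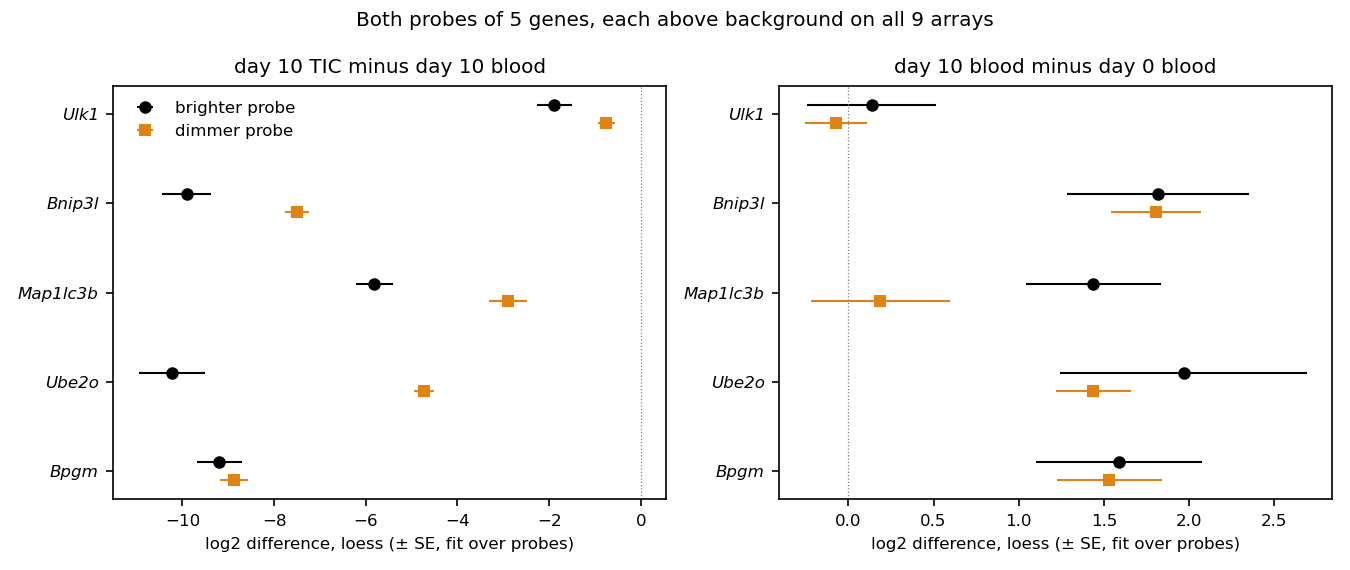
Points are the log2 difference ± SE from a fit over all probes for the brighter (black circle) and dimmer (orange square) probe of 5 genes, TIC minus day 10 blood on the left and day 10 minus day 0 blood on the right. The probes of Bpgm nearly coincide, and those of Ube2o (-10.23 and -4.73) lie furthest apart on the left.

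The pattern over the 9 arrays was compared by the root-mean-square difference of centred log2 ratios, a description over arrays that share the reference. Near to Trim10 was Kel (0.23), the Kell blood group protein. Near to Bpgm was Fam83f (0.24), and nearest to Bnip3l were Ncoa4 (0.31), the ferritin-delivering autophagy receptor, and Zbtb46 (0.34). Ube2o lay nearest to Ccndbp1 (0.30) and Ncoa4 (0.33), and Gabarapl2 to Ypel5 (0.17), a CTLH ligase subunit, and Ghitm (0.22). Map1lc3b lay nearest to Ftl1 (0.28), the ferritin light chain, and Hscb (0.31), Ulk1 to Snrk (0.13) and Parm1 (0.16), and Fbxo7 to Senp8 (0.08) and Krtap8-1 (0.09). Among the 8 genes Bnip3l and Bpgm were 0.36 apart and Bnip3l and Ulk1 3.50.

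The CTLH complex is a ubiquitin ligase that works with the E2 enzyme Ube2h in maturing red cells. Of its 12 listed genes 7 fell and 1 rose in TIC against day 10 blood (33.1% of all genes fell and 34.4% rose there), with a median of -0.58 (0.93 under median centring). The 1 that rose, Mkln1, was above background in neither blood group. It passed the filter only with the TIC arrays counted, which favoured its rise. Ypel5 was at -8.14 ± 0.39, Ube2h at -6.33 ± 0.50 and Ranbp10, a Ran-binding subunit, at -6.31 ± 0.45, all below 0 under median centring too (-2.72, -1.16 and -1.18). The catalytic subunit gene Maea, above background on 2 of 3 day 10 blood arrays, was at -0.56 ± 0.14 (2.07 under median centring). Between the blood groups 0 of 12 were called by limma and 5 had an unadjusted p under 0.05, against 14.8% of all genes. Ranbp10 was at 1.93 ± 0.45, Ube2h at 1.67 ± 0.50 and Wdr26 at 1.38 ± 0.33 (limma adjusted p = 0.124, 0.192 and 0.128). In TIC against day 0 blood, where 33.6% of all genes fell and 31.7% rose, 7 fell and 1 rose, again Mkln1. Rmnd5a was at -2.41 ± 0.24 (0.00036 under median centring).

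The SCF partners of Fbxo7 were split. In TIC against day 10 blood Psmf1, which encodes the proteasome regulator PI31 that binds Fbxo7, fell by 4.09 on the log2 scale, while the RING subunit gene Rbx1 rose by 1.86 ± 0.29 and the scaffold gene Cul1 rose too (limma adjusted p = 0.00702), with no fold given because it was not well above background in day 10 blood. Cul1 passed the filter only with the TIC arrays counted. The adaptor gene Skp1 was at 0.43 ± 0.21 (limma adjusted p = 0.107). Under median centring Psmf1 stayed below 0 at -0.30 and the other 3 above it. Set against day 0 blood, 3 of the 4 rose and Psmf1 fell, where 31.7% of all genes rose and 33.6% fell. In the blood comparison 0 of the 4 were called by limma. Skp1 at 0.70 ± 0.21 was the 1 with an unadjusted p under 0.05, against 14.8% of all genes.

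Of 15 measured genes of mitophagy receptors and the Pink1 pathway 6 fell and 4 rose in TIC against day 10 blood, where 33.1% of all genes fell and 34.4% rose, with a median of -0.24 (2.08 under median centring). Pink1, the kinase that marks damaged mitochondria, was at -4.56 ± 0.32 (-0.27 under median centring). Bnip3, the relative of Bnip3l, rose by 1.25 ± 0.12, and Phb2, an inner-membrane receptor, by 2.44 ± 0.15, both above 0 under median centring too. In day 10 blood Bnip3 was above background on 1 of 3 arrays and Phb2 and Fundc1 on 2 of 3. Mul1, among the 4 that rose, was above background on no day 10 blood array and passed the filter only with the TIC arrays counted. So did Calcoco1 and Optn, among the 6 that fell. Calcoco1 was above background in neither blood group, and was above 0 in Cy5 alone (0.17) and under median centring (0.62). Fundc1 (0.97 ± 0.40) and Sqstm1 (-1.13 ± 0.50) were not called (limma adjusted p = 0.0582 and 0.0704). In TIC against day 0 blood 5 fell and 2 rose, where 33.6% of all genes fell and 31.7% rose. In the blood comparison limma called 0 of 15, and 4 had an unadjusted p under 0.05 (14.8% of all genes), Pink1 at 1.16 ± 0.32 and Optn, below background in day 0 blood, with a limma adjusted p of 0.178.

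Of 28 measured genes of the autophagy machinery 11 fell and 6 rose in TIC against day 10 blood, where 33.1% of all genes fell and 34.4% rose, with a median of 0.04 (0.89 under median centring). The lipid-kinase subunit gene Becn1 was at -4.59 ± 0.30 and the ATG8 protease gene Atg4a at -4.06 ± 0.29 (-0.30 and 0.46 under median centring). Gabarapl1 was at -1.54 ± 0.28 and the ULK-complex scaffold gene Rb1cc1 at -0.58 ± 0.16, both above 0 under median centring (3.66 and 1.61). Gabarap was not called (-0.48 ± 0.31, limma adjusted p = 0.199). Map1lc3a rose in TIC (limma adjusted p = 0.0223), and no fold is given because none of the day 10 blood arrays read it well above background. Atg7 was below background in both blood groups and not called (limma adjusted p = 0.501). Map1lc3a, Atg4b (among the 6 that rose) and Atg7 passed the filter only with the TIC arrays counted. So did Atg14 and Atg2a, among the 11 that fell, which were above background on 3 of 3 TIC arrays and on no day 10 blood array. These falls depended on the scaling. Under median centring Atg14 and Atg2a were at 0.46 and 0.51, and in Cy5 alone at -0.44 and 0.15. Set against day 0 blood, where 33.6% of all genes fell and 31.7% rose, 12 fell and 3 rose, with Atg4d at -2.38 ± 0.22 (-0.17 under median centring). Of the 28, limma called 0 between day 10 and day 0 blood, and 6 had an unadjusted p under 0.05, against 14.8% of all genes. Atg4a was at 1.55 ± 0.29 (limma adjusted p = 0.0702, and 0.0464 with mouse as a block). Becn1 (0.69 ± 0.30), Gabarap (0.65 ± 0.31) and Gabarapl1 (0.63 ± 0.28) were not called, nor was Pik3r4, below background in day 10 blood (limma adjusted p = 0.171).

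Of 15 measured genes of glycolysis around Bpgm 6 rose and 3 fell in TIC against day 10 blood, where 34.4% of all genes rose and 33.1% fell, with a median of 0.29 (2.68 under median centring). Tpi1, triosephosphate isomerase, was at 2.62 ± 0.14 and Pgam1, the mutase related to Bpgm, at 2.07 ± 0.37. Pfkm rose too (limma adjusted p = 3.71e-05), with no fold given because it was not well above background in either blood group. Of the 6 that rose, Pfkm, Hk2 and Minpp1 passed the filter only with the TIC arrays counted, which favoured their rise. Pgk1 was not called (0.72 ± 0.40, limma adjusted p = 0.135). Pgam1 and Bpgm thus had opposite signs after loess and under median centring. In TIC against day 0 blood 6 rose and 1 fell, where 31.7% of all genes rose and 33.6% fell. Of the 15, limma called 0 between day 10 and day 0 blood, and 0 had an unadjusted p under 0.05, against 14.8% of all genes. Pgam1 was at -0.64 ± 0.37 and Gpi1 at -0.81 ± 0.55.

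Erythroid markers fell in TIC in 21 of 22 cases against each blood group, with medians of -4.88 against day 10 and -3.67 against day 0 blood (-0.95 and -0.75 under median centring). Of all genes, 33.1% fell against day 10 blood and 33.6% against day 0 blood. Alas2, the first enzyme of haem synthesis in red cells, was at -11.47 ± 0.61, and Slc4a1, the anion exchanger band 3, at -9.64 ± 0.41 against day 10 blood. The erythroid factor gene Nfe2 was at -5.04 ± 0.17 there. Against day 0 blood Fech, which inserts iron into haem, was at -10.14 ± 0.48. After loess the differences of Bnip3l and Ube2o against day 10 blood lay between those of Alas2 and Slc4a1, without a test between them. Under median centring Bnip3l (-2.66) and Ube2o (-2.70) were smaller in size than Alas2 (-3.14) and Slc4a1 (-2.87). So were they in Cy5 alone (-6.20 and -6.13 against -6.38 and -6.26). Bpgm was smaller in size than both markers in each of these scalings. Platelet markers were lower in TIC too, with 9 of 9 called against day 10 blood, where 33.1% of all genes were called lower. Their median was -5.40 there (-1.61 under median centring). On the TIC arrays 4 to 6 of the 9 were above background, and their part was not tested. Between the blood groups limma called 0 of the 22 erythroid markers, and 15 had an unadjusted p under 0.05, against 14.8% of all genes. Slc4a1 was at 2.39 ± 0.41, Tspo2 at 2.22 ± 0.30, Urod at 1.61 ± 0.22 and Alas2 at 0.93 ± 0.61. With mouse as a block 2 of the 22 were called, where 0.203% of all genes were called higher. Urod was among the 2 (limma adjusted p = 0.0464).

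**Figure D5:**
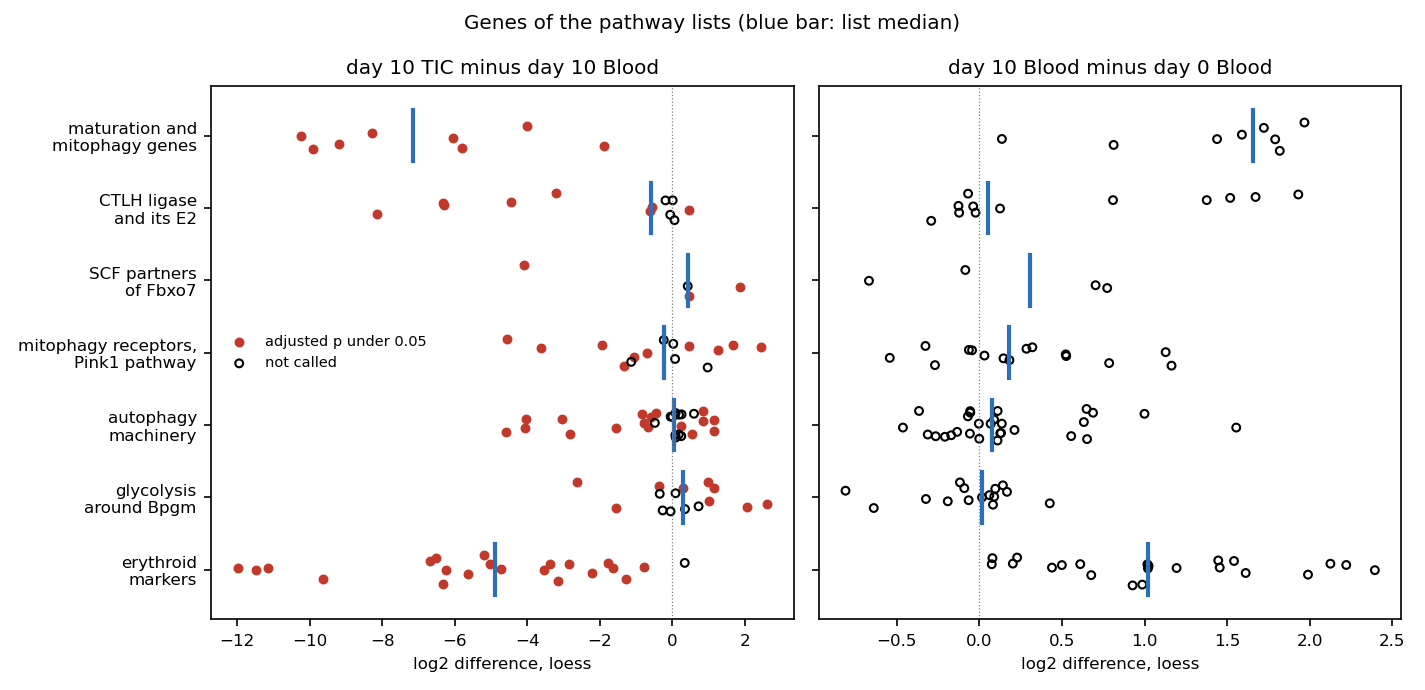
Each point is the log2 difference of 1 gene after loess, TIC minus day 10 blood on the left and day 10 minus day 0 blood on the right, in red where limma's adjusted p is under 0.05, with a blue bar at the list median. The 8 maturation and mitophagy genes have medians of -7.16 and 1.66, the erythroid markers -4.88 and 1.02, and the wider autophagy list 0.04 and 0.08. Median centring moves the left medians to -1.43, -0.95 and 0.89.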

How the data were processed

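RNA of 9 samples was hybridised to 2-colour Agilent mouse arrays. The deposited scanner files hold mean and background intensity per spot in both channels, and the authors' log10 ratio of red over green, made by Feature Extraction 10.5.1.1 per the file headers, while the submitters' processing notes name 9.1.3.1. The authors' deposited log10 ratios were turned to log2 for an alternative. Probes were placed on mm8 by the file headers. Here intensities were background-corrected by normexp (offset 50), leaving out spots with uneven local background, and scaled by loess within each array with control and outlier spots at weight 0. Spots of a probe were averaged, probes whose Cy5 signal was flagged well above background on 3 or more of the 9 arrays were kept, and the brightest stood for a gene. A gene read only in TIC passes this filter through TIC, which favours counts of genes that rose there. Genes were named by accession, symbol or synonym through RefSeq, and otherwise by the file.

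limma 3.58.1 in R 4.3.3 fitted group means over all 9 arrays, so the SE of each comparison rests on all 3 groups, with Benjamini-Hochberg adjustment over 14253 genes. The fit was checked on simulated data. The number of arrays limits the precision. Members and lists were chosen with earlier results of these data known. The text names all members, a fixed set of partner genes, the 2 genes of each list with the smallest p per comparison, and each member's 2 nearest genes, except items not reported here. Replicate numbers are mouse numbers, so they pair samples of the same animal. Deviations of same-numbered samples correlated at 0.19 to 0.35 between the blood groups, -0.06 to 0.06 between TIC and day 10 blood and -0.06 to -0.01 between TIC and day 0 blood. Slides held 1, 4 and 4 arrays. Alternatives covered scaling, background, filters, probes, blocks and left-out arrays.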

Additional observations from a re-analysis of the deposited data

How the results depend on the processing

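Over 25 alternatives to the reported fit and the 8 genes, 181 of 198 values between the blood groups, 192 of 198 between TIC and day 10 blood and 194 of 198 between TIC and day 0 blood kept their direction and their side of the threshold. Between the blood groups the 0 called genes became 763 with Agilent's processed signals, 757 with the deposited ratios, 447 with Cy5 alone, 191 with an offset of 10, 147 when Cy5 had to be above background on every array, 747 with only the blood arrays and 32 with the replicate block. Of the 8 genes 1 was called under the first 5 of these and 2 with only the blood arrays. Leaving out 1 array gave 0 to 1058 called genes and 0 to 4 of the 8, the highest without the TIC array of mouse 833, and 18 genes without the day 0 array of mouse 834. The replicate block, which pairs samples of the same mouse, changed no call of the 8 genes in any comparison.

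Median centring reversed Ulk1 (-0.70), Fbxo7 (-0.29), Map1lc3b (-0.12) and Bpgm (-0.077) between the blood groups, Ulk1 (1.85), Map1lc3b (0.91) and Fbxo7 (0.27) between TIC and day 10 blood, and Ulk1 (1.15) and Map1lc3b (0.79) between TIC and day 0 blood. The replicate and slide blocks together (-0.21) and the other probe, added after the data were seen (-0.073), reversed Ulk1 between the blood groups. The cause was not tested. Called genes between TIC and day 10 blood were 2956 with the same Cy5 filter, 4274 with the slide block and 1110 with both blocks. For TIC and day 0 blood they were 2910 with that filter and 4432 with both blocks. With both blocks Ube2o and Ulk1 lost their call against day 10 blood and Ulk1 against day 0 blood.

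The share of called genes that were higher in TIC moved with the scaling. Against day 10 blood it was 51.0% as reported, 95.7% with median centring, 63.2% with processed signals, 23.4% and 33.9% with the Cy5 and Cy3 filters on all arrays, 35.05% with the slide block and 19.3% with both blocks. Against day 0 blood it was 48.5% as reported, 92.0% with median centring and 57.0% with processed signals, and 21.3% and 32.0% with those filters and 33.2% with both blocks.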
